A study of Mus musculus with 12 samples.

Results

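Some stretches of chromatin carried the mark of an active promoter in blood stem cells of one developmental stage and lacked it in the other, and these stretches are described here as distal ends of promoter contacts. The contacts come from promoter Capture-C, in which cross-linked chromatin is cut with DpnII, ligated, and enriched for ligation products of chosen promoters, so that each read pair joins a captured promoter to a distal piece of DNA. A member is a distal bin of 2 kb, contacted within its own chromosome, that the authors' deposited table marks as an active promoter in exactly 1 of the populations, that carries no bivalent promoter or poised enhancer mark in either, and that overlaps no captured promoter fragment. Of 68572 distal bins in the table, 1172 qualified, in 1763 of 89545 listed contacts. The mark was present in fetal cells only at 451 bins (657 contacts of 457 genes) and in adult cells only at 721 bins (1106 contacts of 669 genes). The rule left out 224 contacts of fetal-only and 425 of adult-only bins that lie on a captured fragment, and 38 and 91 with a bivalent or poised mark. Of the 3352 captured genes with a contact within a chromosome, 158 contacted bins of both kinds.

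The populations were haematopoietic stem cells (HSCs) sorted as Lin-Sca1+cKit+CD135- from the fetal liver at embryonic day 14.5 and from the bone marrow of mice 6 to 8 weeks old, all of strain B6129SF1 and with no allele or agent that differs between them. Each population gave 4 libraries, 2 in each of 2 capture batches, and each deposited count and score stands for a whole population in 1 batch. Expression levels are given per promoter and population, and the promoter and open chromatin marks of a bin were the same in every row that lists it. The remaining 4 libraries of the series, from the HPC7 line, were not analysed here. The promoters captured in the batches hardly overlap, so each batch is given by itself. Because no value per library was used, no difference below has a replicate check. The intervals given are 95% intervals that cover counting error only, and bins that lie side by side are not independent, so they are too narrow.

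An active promoter is recognised by histone marks that accompany the start of transcription, and open chromatin is the nucleosome-poor DNA that transposase (ATAC) can enter. A promoter can be open before or after it is active, so the mark and the openness are separate readings of the same stretch. Fetal liver HSCs divide and expand, whereas adult bone marrow HSCs are mostly quiescent, and a set of fetal growth genes, among them Hmga2, Igf2bp3 and Lin28b, is switched down between these stages. The gene a mark sits beside and the gene whose promoter contacts it from a distance can be different genes, and both are described.

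The labelled cells were checked against expression levels deposited by the authors. All 25 captured HSC regulators of a fixed list reached 1 FPKM (fragments per kilobase of transcript, scaled to sequencing depth) in fetal cells and 24 did so in adult cells. Markers of macrophages and granulocytes were higher in the fetal population, where 12 of 13 reached 1 FPKM against 5 in adult cells, with summed levels of 112 and 14.0 FPKM. Their part in the results on expression was not tested. Hepatocyte and stroma genes were few, with 3 of 5 at 1 FPKM or more in fetal cells and 1 of 5 in adult cells.

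The promoters of 4 genes lying beside marked bins and of 2 that contacted one are shown first, as examples. Hmga2 (a chromatin architectural factor of fetal HSCs) and Igf2bp3 (an RNA-binding protein of the fetal program) lay beside fetal-only marks. Bcl2 (a survival factor) and H2-Q4 (an MHC class I gene) lay beside adult-only marks, and H2-Q6 and H2-Q7 are class I copies next to H2-Q4 whose promoters contacted adult-only bins. Each sequence runs 5′ to 3′ on its gene's strand, from 250 bases before the annotated start to 50 after it, as RefSeq gives it for GRCm38.p6.
Hmga2, chr10:120476420-120476719, minus strand: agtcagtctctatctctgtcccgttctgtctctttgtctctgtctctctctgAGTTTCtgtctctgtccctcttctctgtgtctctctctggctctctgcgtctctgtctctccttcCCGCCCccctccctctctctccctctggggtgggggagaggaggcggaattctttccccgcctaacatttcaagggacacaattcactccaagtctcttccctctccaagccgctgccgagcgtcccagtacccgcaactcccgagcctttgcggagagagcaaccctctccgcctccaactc
Igf2bp3, chr6:49214905-49215204, minus strand: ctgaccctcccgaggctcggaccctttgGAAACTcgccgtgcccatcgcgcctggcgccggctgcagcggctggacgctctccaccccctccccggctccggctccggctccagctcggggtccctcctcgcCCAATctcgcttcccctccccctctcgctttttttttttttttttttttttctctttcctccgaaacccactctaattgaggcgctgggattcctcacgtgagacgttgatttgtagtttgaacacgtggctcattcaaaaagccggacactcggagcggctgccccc
Bcl2, chr1:106714241-106714540, minus strand: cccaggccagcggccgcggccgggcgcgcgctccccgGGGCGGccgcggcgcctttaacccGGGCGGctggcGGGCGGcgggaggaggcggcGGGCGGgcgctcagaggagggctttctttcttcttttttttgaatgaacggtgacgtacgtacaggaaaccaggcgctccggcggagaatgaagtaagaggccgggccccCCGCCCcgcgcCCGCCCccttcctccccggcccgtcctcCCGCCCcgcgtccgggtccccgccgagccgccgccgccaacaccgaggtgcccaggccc
H2-Q4, chr17:35379367-35379666, plus strand: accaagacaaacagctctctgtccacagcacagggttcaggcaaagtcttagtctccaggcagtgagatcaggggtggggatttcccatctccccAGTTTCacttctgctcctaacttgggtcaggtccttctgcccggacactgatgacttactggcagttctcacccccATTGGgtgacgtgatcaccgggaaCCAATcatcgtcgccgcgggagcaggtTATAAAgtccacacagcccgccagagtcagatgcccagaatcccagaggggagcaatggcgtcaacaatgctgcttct
H2-Q6, chr17:35424600-35424899, plus strand: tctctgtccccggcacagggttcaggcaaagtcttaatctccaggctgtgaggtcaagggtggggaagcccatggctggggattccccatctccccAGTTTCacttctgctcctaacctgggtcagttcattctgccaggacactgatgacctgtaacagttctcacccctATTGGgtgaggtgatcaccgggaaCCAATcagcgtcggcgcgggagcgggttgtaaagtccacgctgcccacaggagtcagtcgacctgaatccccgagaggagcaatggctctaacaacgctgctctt
H2-Q7, chr17:35438905-35439204, plus strand: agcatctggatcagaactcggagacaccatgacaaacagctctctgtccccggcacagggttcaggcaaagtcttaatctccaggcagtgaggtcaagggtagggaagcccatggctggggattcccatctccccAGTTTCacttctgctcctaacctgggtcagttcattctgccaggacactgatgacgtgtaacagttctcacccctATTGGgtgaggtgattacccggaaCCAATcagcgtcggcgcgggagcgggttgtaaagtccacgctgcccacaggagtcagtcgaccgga
Capitals mark any of 6 short motifs on either strand, and each is given with the share of 32544 mouse promoter windows of 300 bases that hold it. The TATA box (TATAAA) was present in 13.6%, the CCAAT box (CCAAT) in 37.4% and the GC box (GGGCGG) in 35.9%. The letters of GATA factors (AGATAA) were present in 11.2%, those that start an interferon response element (AGTTTC) in 15.9%, and those of ETS factors (CCGGAAG) in 8.91%. The Bcl2 window held 44 CpG dinucleotides and 7 GC boxes, and the Hmga2 window 12 CpG and 1 GC box. All 3 H2-Q windows held 2 CCAAT boxes and 1 AGTTTC, and H2-Q4 alone of them a TATAAA. The H2-Q6 and H2-Q7 windows aligned over 261 columns with 97.3% of them identical, against 82.8% for H2-Q4 with H2-Q6. Reads from H2-Q6 and H2-Q7 may therefore be assigned to either, and counts of these genes are uncertain. A motif match is a description of the letters and not a site of binding.

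**Figure D1:**
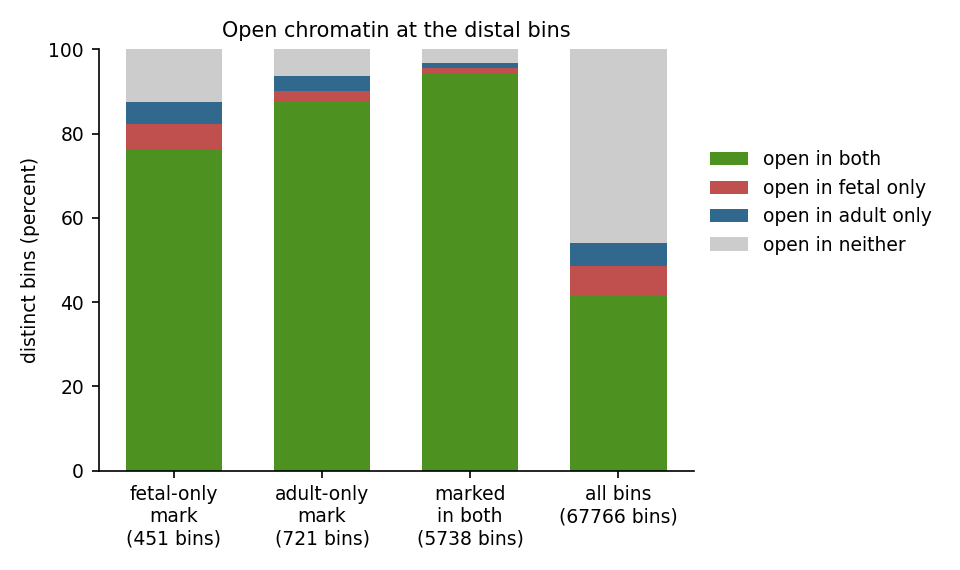
Bars show the percentage of distinct bins with open chromatin in both populations, in 1 or in neither, for bins with a fetal-only or adult-only active promoter mark, bins marked in both and all bins. Chromatin was open in both populations at 76.3% of fetal-only bins and 87.5% of adult-only bins.

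In the population that lacked the mark, the chromatin at most of these bins was nevertheless open. Of the 451 fetal-only bins, 368 (81.6%, interval 77.7 to 85.1) were open in adult cells and 371 (82.3%) in fetal cells. Of the 721 adult-only bins, 650 (90.2%, interval 87.7 to 92.2) were open in fetal cells and 656 (91.0%) in adult cells. The mark in 1 population therefore came with almost the same openness in both. The chromatin was open in the marked population alone at only 27 fetal-only bins (5.99%) and 25 adult-only bins (3.47%), and in the opposite population alone at 24 (5.32%) and 19 (2.64%). Bins marked in both populations were open in 95.6% in either, and all bins listed within chromosomes in 48.6% in fetal and 46.9% in adult cells.

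The bins seldom carried an active enhancer mark where the promoter mark was missing. An active enhancer mark of adult cells lay on 26 fetal-only bins (5.76%, interval 3.8 to 8.33) and one of fetal cells on 34 adult-only bins (4.72%, interval 3.29 to 6.53). Both shares lay above the 1.73% and 1.64% of bins marked as promoters in both, by 4.04 percentage points (2.2 to 6.61) and 3.08 points (1.71 to 4.90), and below the 11.5% and 12.3% of all bins. The population with the promoter mark carried the enhancer mark about as often, at 26 fetal-only bins in fetal cells (5.76%) and 27 adult-only bins in adult cells (3.74%). The commonest state of the other population was open chromatin without any of these marks, at 347 fetal-only bins (76.9%) and 615 adult-only bins (85.3%). No mark and no openness was found at 76 (16.9%) and 68 (9.43%).

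Fetal-only bins were open less often than adult-only bins in the population without the mark, by 8.56 percentage points (interval 4.48 to 12.9 in size). In the marked population they were also open less often, by a gap of -8.72 points (-13.0 to -4.73). Many of these bins lay at the side of a promoter marked at both stages. Among bins with a listed bin directly beside them, 99 of 374 fetal-only bins (26.5%) and 95 of 579 adult-only bins (16.4%) touched a bin marked in both. Of these flanking bins, 52 of 99 fetal-only ones (52.5%) were open in adult cells and 70 of 95 adult-only ones (73.7%) in fetal cells. Without them the shares were 89.8% (316 of 352) and 92.7% (580 of 626). Their difference, fetal-only minus adult-only, was -2.88 points with an interval from -6.91 to 0.71 that includes 0. The bins that remained include those with no listed neighbour, for which the mark beside them is unknown. Among all bins with a listed neighbour, flanking bins included, most touched a bin of the same mark, at 252 of 374 (67.4%) and 457 of 579 (78.9%). For bins marked in both, the like share was 92.7% (4233 of 4567). A bin of the opposite mark touched 1 bin of each kind.

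Calls did not differ between fetal-only and adult-only marks beyond counting error. In the first batch 116 fetal-only contacts were called in fetal cells alone, 115 in adult cells alone and 126 in both. For the second these calls numbered 79, 76 and 145. Over all contacts within chromosomes, 39% of the first batch were called in fetal cells only, 35.7% in adult cells only and 25.3% in both, and in the second batch 34%, 29.3% and 36.7%. Adult-only contacts divided into 205 fetal, 209 adult and 193 shared calls (first batch), then 141, 118 and 240 (second batch). Among calls in 1 population, the fetal share was 50.2% (interval 43.6 to 56.8) for fetal-only and 49.5% (44.6 to 54.4) for adult-only marks in the first batch, a difference of 0.70 points (-7.30 to 8.69). It was 51.0% (42.8 to 59.1) and 54.4% (48.2 to 60.6) in the second, a difference of -3.47 points (-13.3 to 6.38). Differences inside these intervals were not detectable at this number of contacts.

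**Figure D2:**
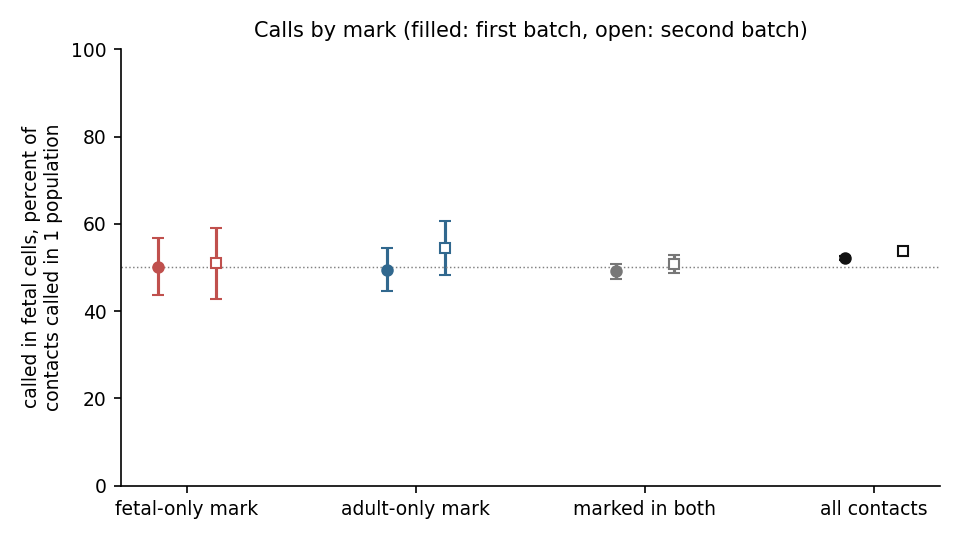
Points show the percentage called in fetal cells among contacts called in 1 population, with exact 95% intervals (counting error only), by mark and batch. The 4 values for bins with a 1-population mark lie between 49.5% and 54.4%, and all their intervals include 50%.

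What the marked bins did show was a larger share of contacts called at both stages. Contacts of fetal-only bins were called in both in 35.3% (interval 30.3 to 40.5) and 48.3% (42.6 to 54.1) of cases for the earlier and later batch. That was 10.1 points (5.27 to 15.2) and 11.7 points (6.06 to 17.3) above all other contacts. For adult-only bins the shares were 31.8% and 48.1%, above the other contacts by 6.58 points (2.97 to 10.4) and 11.5 points (7.12 to 15.9). Bins marked in both reached 40.2% and 48.7%. In the first batch adult-only bins stood 8.37 points below those (interval 4.34 to 12.2 in size), and in the second the gap of 0.57 points had an interval that includes 0.

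Read counts also lay close to equal. The median fetal-to-adult ratio on the log2 scale, after adding 1 to each count, was 0.12 (interval 0.00 to 0.22) for fetal-only and 0.00 (0.00 to 0.13) for adult-only contacts in the first batch. Second-batch medians were 0.21 (0.11 to 0.26) and 0.20 (0.13 to 0.26). All contacts within chromosomes had medians of 0.14 and 0.23. Relative to these, adult-only contacts of the first batch had a median of -0.14 (-0.14 to -0.02), while the other 3 medians lay between -0.03 and -0.02 with intervals that include 0. The interval of the first included 0 when contacts were centred by distance class (-0.09, -0.19 to 0.03), had at least 20 reads (-0.08, -0.16 to 0.01) or were summed per bin (-0.06, -0.15 to 0.01). It excluded 0 when 5 was added to each count (-0.11, -0.11 to -0.004) and without bins touching a bin marked in both (-0.14, -0.14 to -0.007). Leaving out contacts of at least 1000 reads also kept 0 outside it (-0.14, -0.20 to -0.04). Bins marked in both likewise lay below the batch median, at -0.07 (-0.14 to -0.04) and -0.05 (-0.07 to -0.03). A fetal count at least 2-fold above the adult count was found for 17.6% of fetal-only and 14.8% of adult-only contacts in the first batch, against 20.9% of all contacts, and for 11% and 7.41% in the second, against 14%. An adult count at least 2-fold above the fetal count was found for 12.0% and 12.2% in the first batch, against 14.4%, and for 3.00% and 4.81% in the second, against 4.33%. These shares lie near or below the background, so contacts of bins marked at 1 stage did not carry strong count differences more often than contacts in general. Counts were low, with medians of 10 fetal and 10 adult reads per contact in the first batch for either mark, and 31 and 27 (fetal-only) or 32 and 28 (adult-only) in the second.

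**Figure D3:**
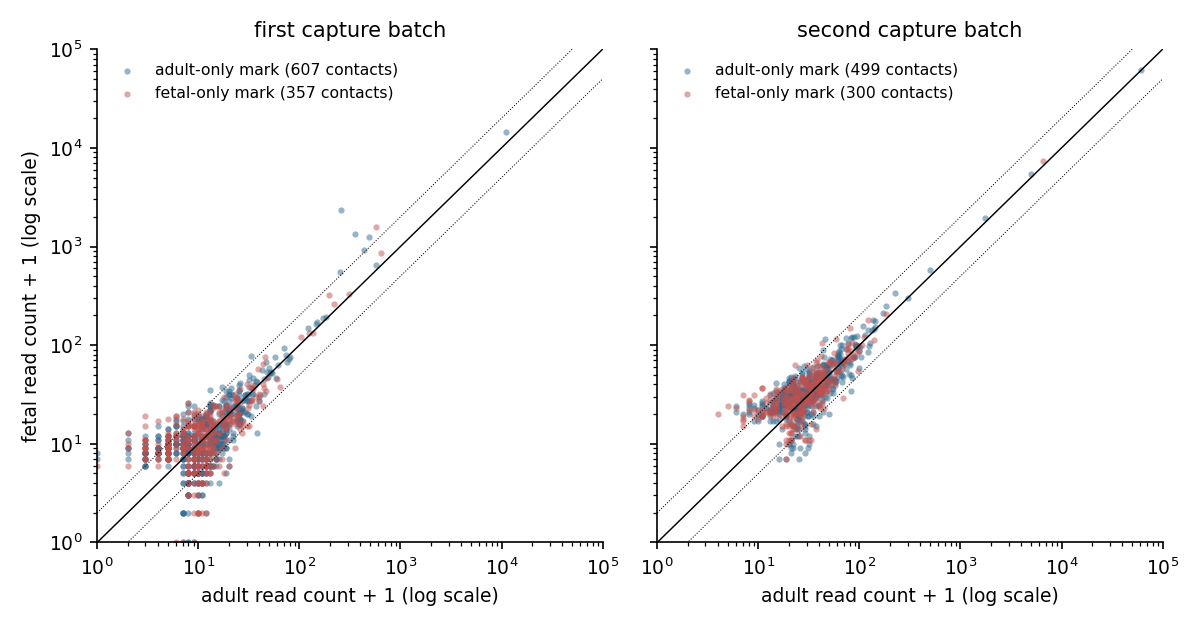
Each point is a member contact, with its adult count plus 1 on the horizontal and its fetal count plus 1 on the vertical axis (both log scales), by batch. The solid line marks equal counts and the dotted lines a 2-fold difference; red and blue points overlap along the line, and the H2-Q7 contact (2366 fetal, 256 adult) stands above it.

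Contacts of both kinds of bin bridged similar distances. The median distance between the middles of the promoter fragment and the bin was 161 kb (148 to 173) for fetal-only and 173 kb (160 to 187) for adult-only bins in the first batch, against 90.1 kb (80.8 to 106) and 93.0 kb (85.8 to 101.6) in the second. Calls in fetal cells alone lay farther out than calls in adult cells alone whichever population held the mark. In the second batch the medians were 126 against 68.3 kb for fetal-only and 121 against 68.9 kb for adult-only bins, and over all contacts 119 against 64.0 kb.

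Where the mark was fetal, the contacts with the largest fetal count excess (at least 20 reads and 20 kb) were short of reads on the adult side. Tnfaip2, a gene induced by tumour necrosis factor, had 18 fetal and 2 adult reads to the fetal-only bin at chr12:112774001-112776001 (mm9), 94.3 kb away, and its expression was 13.8 and 7.38 FPKM. That was from an alternative promoter, and the other Tnfaip2 promoter had 15 and 9 reads to the same bin. Bub1b, a kinase of the mitotic checkpoint, had 23 and 4 reads to a bin 225 kb away, with 18.1 FPKM in fetal and 7.35 in adult cells, a difference marked as significant in the authors' deposited table. Zfp938 (19 and 3 reads), Gspt2 (30 and 6) and Mpp2 (22 and 5) completed the top 5, and of these Zfp938 and Gspt2 were expressed at the higher level in adult cells. All 5 bins were open in both populations. In the opposite direction Tnfsf13, a cytokine that promotes B cell survival, had 10 fetal and 32 adult reads to the fetal-only bin at chr11:69736001-69738001. That bin was open in adult cells alone, and the gene's level was 0.25 FPKM in fetal and 3.51 in adult cells. Slc15a3 (4 and 17 reads) and Slc38a6 (5 and 19) likewise had more adult reads at a fetal-only bin.

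Where the mark was adult, the 5 largest adult excesses ran from -1.93 to -1.74 on the log2 scale of fetal over adult reads, against 1.94 to 2.66 for the fetal ones above, with no correction for depth. Sult1a1, a sulphotransferase, had 7 fetal and 28 adult reads to the bin at chr7:133678001-133680001, and 0.045 and 6.01 FPKM, so that mark, count and expression all pointed to adult cells. Mecom, a transcription factor needed for long-term HSCs, had 5 and 19 reads to chr3:30412001-30414001 at 516 kb and was called in adult cells only, while its expression of 9.84 and 10.7 FPKM was not marked as different. Its alternative promoter had 7 and 8 reads to the same bin and was called in both. At the adjoining adult-only bin Mecom had 10 and 19 reads, called in both, and the alternative promoter 9 and 4, called in fetal cells only. Pias1 (8 and 30 reads), Pgp (6 and 24) and Smad4 (4 and 18) also had adult excess, and Pgp was expressed at 25.9 FPKM in fetal and 11.9 in adult cells. Against the mark stood Dennd5a, with 23 fetal and 5 adult reads, and the class I genes H2-Q7 and H2-T22.

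Among the fixed lists, that of MHC class I and interferon genes was most often in contact with adult-only marks. Of 19 captured genes of the MHC class I and interferon list, 9 (47.4%) contacted an adult-only bin and 0 a fetal-only bin, against 20.0% and 13.6% of all captured genes. The 9 genes include 7 class I genes of chromosome 17, whose 18 contacts fell on 9 bins. Several of these bins were shared, as was chr17:35652001-35654001 by H2-Q4, H2-Q6 and H2-Q7. These genes are therefore not independent, and the 47.4% does not count separate loci. All 9 genes were higher in adult cells, as were 18 of the 19 differential genes of the list, so this direction is that of the list. Calls of their 21 contacts were 3 fetal, 7 adult and 11 shared. The H2-Q7 promoter had 2366 fetal and 256 adult reads to the adult-only bin at chr17:35530001-35532001, which was open in adult cells and closed in fetal cells, and H2-Q6 had 548 and 253 to the same bin. The levels ran the other way, at 0.097 fetal and 46.0 adult FPKM for H2-Q7 and 0.078 and 59.8 for H2-Q6. For H2-T22 (1331 and 352 reads) and H2-T23 (915 and 436) fetal reads also prevailed, at the bins chr17:36258001-36260001 and chr17:36248001-36250001. These 4 contacts, each of at least 801 reads, all had more fetal reads. The other 14 class I contacts had at most 122 reads, and in them fetal reads were more numerous in 5, adult reads in 7 and both equal in 2. Class I genes are similar copies of one another, and only the H2-Q promoters shown above were compared in sequence, so how far counts are shared between copies was not tested.

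Of the 5 contacts with the highest counts for each mark, all but those of H2-Q7 and Ifi203 differed by less than 2-fold between the stages. Syt11, a synaptotagmin of membrane traffic, had 62263 fetal and 61005 adult reads to an adult-only bin 60.3 kb away. Cxx1b had 7304 and 6551 to a fetal-only bin at 26.8 kb, and Abcb1b, a drug efflux pump, 5437 and 4960 to an adult-only bin at 139 kb. Ms4a6b (861 and 636), Sfi1 (324 and 197) and Mthfs (14619 and 11187) were higher in fetal cells by less than 2-fold, as was Ube2v1 (327 and 312), while Ifi203, an interferon-inducible gene, had 1584 and 567 to a fetal-only bin and was expressed at 3.62 and 10.4 FPKM. Whether sequence shared with related genes enters these counts was not tested.

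HSC regulators met both kinds of mark. Of 25 captured, 8 (32%) contacted an adult-only bin and 2 (8%) a fetal-only bin, beside 20.0% and 13.6% of all captured genes. Runx1, a factor required for the emergence of HSCs, contacted both kinds within a few kilobases. Its promoter had 19 fetal and 11 adult reads to the fetal-only bin at chr16:92694001-92696001, called in fetal cells only although the bin was closed at both stages, and 55 and 42 to the adult-only bin at chr16:92698001-92700001, called in both. Both bins lay beside its other captured promoter, and its level of 7.76 and 11.8 FPKM was not marked as different. Gfi1b, a transcriptional repressor that acts in blood cells, had 19 and 6 reads to an adult-only bin, but 12 and 12 to the bin adjoining it. Lyl1, a bHLH factor, had 30 and 19. Adult reads were more numerous for the growth regulator Myc (11 and 16), called in adult cells only, and Tcf3, a bHLH factor, had 7 and 12 reads to one adult-only bin and 21 and 12 to another. Over the 15 contacts of these regulators with adult-only bins, 6 calls were fetal, 3 adult and 6 shared. Gata2, a zinc finger factor of HSCs, had 16 and 13 reads to an adult-only bin at 302 kb, with 21.9 and 57.3 FPKM.

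In all the fixed lists 8 genes contacted a fetal-only bin in 8 contacts, of which 7 were called in fetal cells only, 0 in adult cells only and 1 in both, at medians of 9 fetal and 6.5 adult reads. All 8 were in the first batch, where 32.5% of fetal-only contacts and 39% of all contacts within chromosomes were called in fetal cells only. These were Runx1, Mecom, Notch1, Cdh5, Pf4, Cd68, Emr1 and, called in both, Ccnd1. The 54 contacts of listed genes to adult-only bins held 15 fetal, 15 adult and 24 shared calls. Cell cycle genes had 4 of 14 captured members at adult-only bins, Aurka, Aurkb, Mcm7 and Plk1, a share of 28.6% beside 20.0% of all captured genes. All 4 were higher in fetal cells, as were 12 of the 13 differential genes of the list. Of the fetal HSC program, 1 of 8 captured genes contacted an adult-only bin, Igf2 (11 fetal and 8 adult reads), and 0 contacted a fetal-only bin. For the adult HSC and quiescence list it was 1 of 9, Cdkn1c. The lymphoid list had 1 of 4 captured genes at either kind of bin, the hepatocyte and stroma list 1 of 5, the erythroid and megakaryocyte list 1 of 12, and the macrophage and granulocyte list 2 of 13 at fetal-only and 3 of 13 at adult-only bins. Of all captured genes, 13.6% contacted a fetal-only and 20.0% an adult-only bin.

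Some marked bins were met by several genes. Among the 3 bins of each mark met by the most genes, calls in 1 population went both ways at 3 of the 6. The adult-only bin at chr8:87210001-87212001 was contacted by 6 genes, 3 called in fetal and 3 in adult cells. Klf1, the master regulator of red cell genes, had 14 fetal and 36 adult reads to it and 24.04 and 2.40 FPKM, while Nfix, a factor with higher adult expression (4.39 and 13.8 FPKM), had 33 and 25 reads. The adult-only bin at chr17:34028001-34030001 was met by 6 genes, including H2-K1 and Tapbp, 5 of them called in adult cells only. The adult-only bin at chr10:79604001-79606001 was met by 6 genes, including the cold-inducible Cirbp, in 7 contacts of which 5 were called in both. Among fetal-only bins, chr3:88892001-88894001 was met by Pklr, Hcn3, Dap3 and Mtx1, chr5:109984001-109986001 by 5 genes including Crlf2, and chr11:49058001-49060001 by 4 genes, including the interferon-inducible Ifi47 and Irgm1. In all, 314 of 451 fetal-only and 503 of 721 adult-only bins were met by 1 gene.

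The genes in contact with fetal-only and adult-only bins did not differ in the direction of expression beyond counting error. In the first batch 37.7% of the 252 genes at fetal-only bins and 38.8% of the 353 at adult-only bins were marked as differential in the authors' deposited table, against 35.6% of all captured genes. Of those, 45 of 95 (47.4%, interval 37.0 to 57.9) at fetal-only and 77 of 137 (56.2%, 47.5 to 64.7) at adult-only bins were higher in fetal cells, against 45.1%. The difference, fetal-only minus adult-only, was -8.84 points (-21.5 to 4.16). In the second batch, where every gene was marked as differential, 116 of 205 (56.6%, 49.5 to 63.5) and 174 of 316 (55.1%, 49.4 to 60.6) were higher in fetal cells, against 46.1%, and the difference was 1.52 points (-7.19 to 10.1). Relative to the other captured genes, more were higher in fetal cells at fetal-only and adult-only bins of the second batch, by 11.8 points (4.56 to 18.9) and 10.9 points (4.80 to 16.8), and at adult-only bins of the first, by 14.8 points (5.15 to 24.03). At fetal-only bins of the first batch the interval of 2.68 points ran from -8.07 to 13.6. Genes at bins marked in both stages also lay above the share of all captured genes, with 51.7% (212 of 410) and 50.2% (591 of 1178) higher in fetal cells.

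Pklr, the pyruvate kinase of red cells and liver, had 30.3 FPKM in fetal and 0.96 in adult cells and contacted a fetal-only bin with 67 and 36 reads and the one adjoining it with 39 and 33. It also contacted adult-only bins on its other side with 33 and 35, and 33 and 36 reads. Rhd, a red cell surface protein, had 8.76 and 0.63 FPKM and 31 and 12 reads to a fetal-only bin. Cd5l, a macrophage-secreted protein, had 14.7 and 0.16 FPKM and nearly equal reads (7 and 9), as had Id3 (54 and 47 reads, 3.73 and 0.13 FPKM), an inhibitor of bHLH factors. Sdsl, an enzyme of serine breakdown (0.30 and 31.8 FPKM), the platelet chemokine Pf4 (14.2 and 113) and Ltbp3, a binding protein of latent TGF-beta (0.33 and 9.44), were higher in adult cells although their contact was a fetal-only bin. At adult-only bins Lgals1, a galectin, had 135 and 6.49 FPKM, Igf2, a fetal growth factor, 20.6 and 0.54, and the heat shock gene Hspa1b 0.28 and 7.97.

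Genes that lay beside the mark differed between the kinds of mark, unlike genes that contacted it. This comparison, and the genes named in it, were chosen after the values were seen. A captured promoter within 5 kb, but not overlapping, was present for 74 fetal-only and 133 adult-only bins, and these gave 67 and 121 genes. Of the differential ones, 32 of 50 (64%, interval 49.2 to 77.1) beside fetal-only and 27 of 86 (31.4%, 21.8 to 42.3) beside adult-only bins were higher in fetal cells, against 45.9% of all differential captured genes of both batches. The difference was 32.6 points (15.3 to 47.4). Beside bins marked in both the share was 58.3% (247 of 424). Adult-only bins stood 26.9 points below it (15.4 to 36.8 in size), whereas the 5.75 points of fetal-only bins above it had an interval from -8.86 to 18.5.

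**Figure D4:**
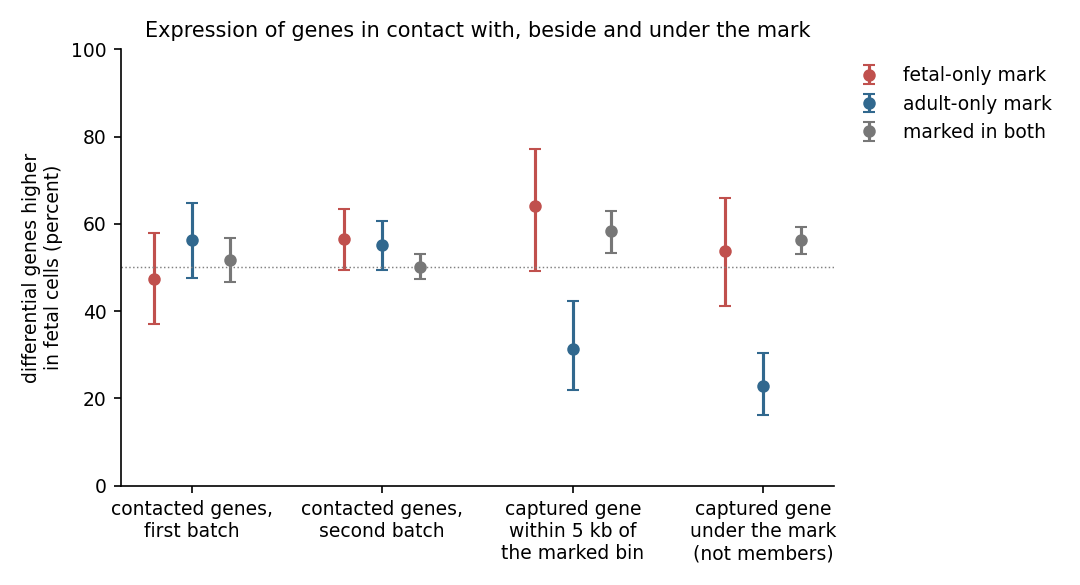
Points show the percentage of differential genes higher in fetal cells, with exact 95% intervals (counting error only), for genes in contact with marked bins by batch, for captured genes within 5 kb of a marked bin and for captured genes overlapped by one. The fetal-only and adult-only values lie apart beside the mark (64% and 31.4%) and overlap for contacted genes.

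Among genes at least 5 FPKM in 1 population, the shares were 67.7% (21 of 31) and 43.2% (19 of 44), with a difference of 24.6 points (1.7 to 43.8), and the interval of the adult-only share included 50%. The bins left out because they overlap a captured fragment gave 53.7% (36 of 67) for fetal-only and 22.8% (33 of 145) for adult-only marks, a difference of 31.0 points (17.0 to 43.9). There the fetal-only share did not stand above the 56.2% of bins marked in both.

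Hmga2 had 28.2 FPKM in fetal and 1.75 in adult cells, and its captured fragment ended 182 bases from the fetal-only bin at chr10:119914001-119916001. Igf2bp3 had 6.29 and 0.16 FPKM beside chr6:49166001-49168001, Id1, an inhibitor of bHLH factors, 6.64 and 0.74, and the haem pathway enzymes Blvrb and Alad 29.1 and 7.48, and 47.6 and 18.05. These genes were higher at the stage that carried the mark, and the chromatin beside all but Blvrb was open at both stages. Opposite to the mark were the long non-coding Neat1 (3.51 and 28.5 FPKM), Runx2 (3.70 and 14.1), and Cited2, a regulator of HSC quiescence (15.2 and 31.7). The Neat1 and Runx2 bins were open in adult cells alone and the Cited2 bin in fetal cells alone.

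Beside adult-only bins H2-Q4 had 3.71 FPKM in fetal and 68.1 in adult cells, the platelet protein gene Plek 3.96 and 20.6, Gp5, a platelet glycoprotein, 1.93 and 7.86, Bcl2 1.13 and 5.54, Gata2 21.9 and 57.3 and the tetraspanin Cd63 32.1 and 71.6. Nfe2, a megakaryocyte and red cell factor, had 48.5 and 86.3. All of these were higher in adult cells. Egfl7, an endothelial and HSC secreted factor, with 80.1 and 26.1 FPKM, and Rasip1 (2.74 and 0.33) were higher in fetal cells beside an adult-only mark. Foxo3 (10.1 and 11.1 FPKM) and Hoxb4 (1.06 and 2.11) lay beside adult-only bins and were not marked as different.

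**Figure D5:**
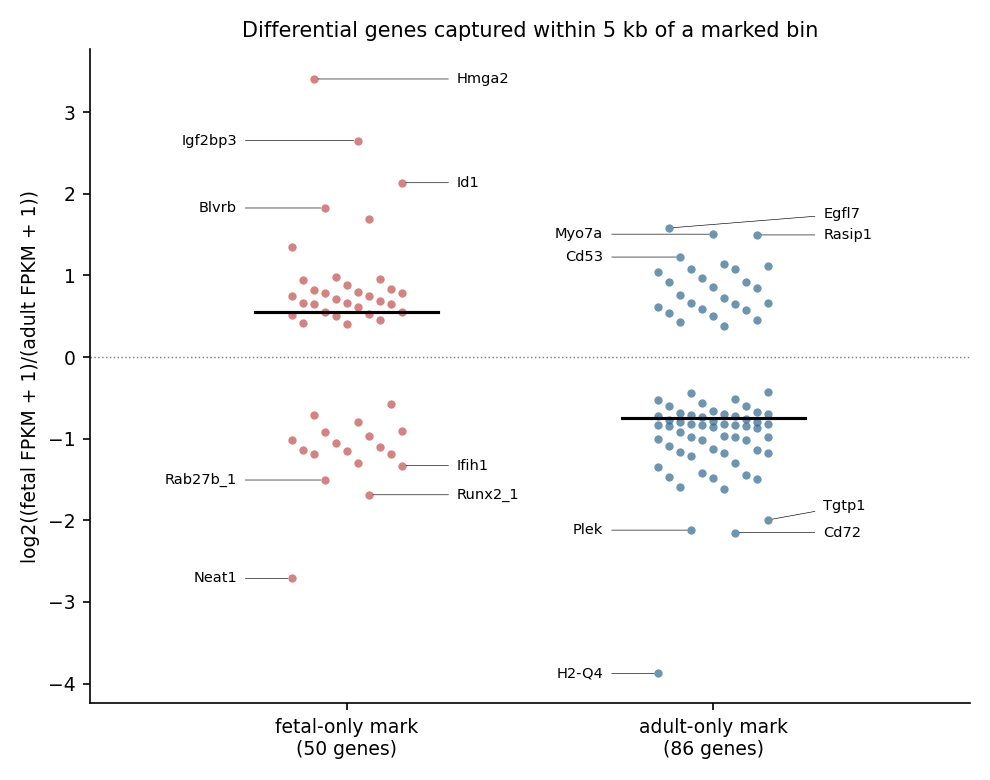
Each point is a differential gene whose captured promoter lay within 5 kb of a marked bin, with its log2 ratio of fetal to adult FPKM after adding 1; black lines are medians. The 50 genes beside fetal-only bins have a median of 0.56, and the 86 beside adult-only bins a median of -0.75.

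The contacts made by these same bins were few. The Hmga2 bin was contacted by Llph (6 fetal and 4 adult reads) and Irak3 (6 and 5), and the Igf2bp3 bin by 2410003K15Rik (41 and 35). The Bcl2 bin was contacted by Kdsr with 38 fetal and 21 adult reads and the Gata2 bin by Gm5577 with 8 and 1, in both cases called in fetal cells only at an adult-only mark. At adult-only bins whose neighbouring gene was higher in adult cells, 33 of 59 calls in 1 population were fetal (55.9%, 42.4 to 68.8). At fetal-only bins whose neighbouring gene was higher in fetal cells, 14 of 23 were fetal (60.9%, 38.5 to 80.3). Where the neighbouring gene was higher at the stage without the mark, 13 of 38 such calls at adult-only bins (34.2%, 19.6 to 51.4) and 6 of 14 at fetal-only bins (42.9%, 17.7 to 71.1) were fetal. The shares ran with the neighbouring gene at fetal-only bins and opposite to it at adult-only bins. The separate intervals overlapped in both cases, which does not settle whether the shares differ, and their differences were not tested. These counts pool both batches. Over all contacts within chromosomes the fetal share of calls in 1 population was 52.1% in the first batch and 53.7% in the second.

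Mark, call and expression pointed to the same stage about as often as the other combinations occurred. Among contacts called in 1 population whose gene was differential, all 3 pointed to fetal cells at 24 of 88 fetal-only contacts in the first batch (27.3%) and 41 of 155 in the second (26.5%). All 3 pointed to adult cells at 36 of 172 adult-only contacts (20.9%) and 56 of 259 (21.6%). Each of the 4 combinations of call and expression took between 20.9% and 31.4% for either mark and batch. In both batches the agreeing combination was the most frequent at fetal-only bins and the least frequent at adult-only bins. Equal shares are not the baseline. Over all contacts, 52.1% and 53.7% of calls in 1 population were fetal, by batch, and 45.1% and 46.1% of differential captured genes were higher in fetal cells. The same combinations over all contacts are not given here.

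Very few contacts were seen in both batches, since the captured fragments seldom coincided. For 5 pairs of fragment and bin they did. The fragment shared by Hspd1 and Hspe1, which encode the mitochondrial chaperones, had 7 fetal and 1 adult reads to the adult-only bin at chr1:54982001-54984001 in the first batch, then 22 and 7 reads in the second, and was called in fetal cells only both times. The fragment of Ndufaf2 and Ercc8 had 6 and 16 reads to a fetal-only bin in the first batch, then 13 and 21 in the second, called in adult cells only both times. Its neighbouring fetal-only bin had 7 and 12 reads, then 25 and 21, called in both each time, and its adult-only bin at chr13:109004001-109006001 had 11 and 21, then 26 and 33, called in adult cells and then in both. The Ikzf5 and Acadsb fragment had 3 and 10 reads, called in adult cells, and then 37 and 46, called in both. In both of these calls that repeated in 1 population, the call lay at the stage without the mark.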

How the data were processed

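Per the labels' protocols, sorted cells were cross-linked, digested with DpnII and ligated, and promoters were captured with oligonucleotides. The submitters' processing notes name Trim Galore 0.41, Bowtie2 2.2.2 and the build mm9 without stating their roles, and bins are printed on that build. The authors deposited 1 table with, per contact and population, a whole-number read count, a score that behaves as a −log10 p-value (0 where not called; the smallest value above 0 is 1.3 for the first batch and 2 for the second), FPKM per promoter, a mark of differential expression, and 0 or 1 marks per bin. How the authors made the FPKM values and the marks, and whether a count sums its 2 libraries, is not given in the sources used here. Counts are not scaled for depth: over all listed contacts they summed to 1312829 fetal and 1098957 adult reads (first batch) and 2368080 and 2135161 reads (second batch).

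A contact was called where its score was above 0. Gene names had suffixes of alternative promoters removed, and 1 value per gene was taken from the promoter with the highest summed FPKM. Log2 ratios added 1 to counts and to FPKM. Shares have exact Clopper-Pearson intervals, differences of shares Newcombe intervals, and medians intervals from order statistics (Python 3.11.15, SciPy 1.17.1, statsmodels 0.14.6). On simulated data with known values, the code returned fetal shares of calls and median count ratios close to those values. The intervals of differences were not tried there, nor was the coverage of the other intervals. With counts and scores pooled per population and batch, and the other values given per population, no test was possible. Columns of values without a population numbered 0. Named contacts are, per mark, the 5 with the highest summed counts, the 5 with the largest count ratio towards and the 3 against the mark (at least 20 reads and 20 kb), the 3 bins met by the most genes, the 5 genes with the largest FPKM ratio towards and the 3 against the mark, and genes of the fixed lists. Genes beside the mark were added afterwards. The members and lists were chosen with earlier results of these data known. Alternatives were other pseudocounts (5 reads, 0.1 FPKM), minimum counts and FPKM, distance limits and centring, a stricter score, each bin counted once, and a 5 kb margin around captured fragments. For the chromatin state each distinct bin was counted once, with every contact as the alternative. Promoter sequences are RefSeq's for GRCm38.p6; no bin sequence was used here.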

Additional observations from a re-analysis of the deposited data

Results flagged for a closer look

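Contacts between chromosomes lay outside the comparisons. At bins with a fetal-only mark there were 9, and at bins with an adult-only mark 4. The largest were those of Pisd-ps2 on chromosome 17 with bins on chromosome 11 (143269 fetal and 161744 adult reads, and 12332 and 6608) and of Gm12216 on chromosome 11 with a bin on chromosome 12 (57862 and 55386). Sfi1 on chromosome 11 contacted a fetal-only bin on chromosome 17 with 157 and 126 reads. Whether reads of similar sequence elsewhere in the genome enter these counts was not tested. Srsf3 on chromosome 17 had 57 fetal and 3 adult reads to a fetal-only bin on chromosome 3, called in fetal cells only.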

How the results depend on the processing

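No paired analysis was possible because each deposited count and score covers a population's libraries of a batch together, with no replicate numbers. For the same reason no library could be left out. Of 72 alternatives to 20 results, 59 stayed within the interval of the reported value, 9 moved beyond it, and 0 changed the direction of a value whose interval excluded equality. The other 4 are counts of member contacts without bins within 5 kb of a captured fragment, which fell from 357 to 299 and 300 to 245 (fetal-only, by batch) and from 607 to 501 and 499 to 393 (adult-only). Beyond 60 kb, the fetal share of calls in 1 population was 62.3% for fetal-only and 67.0% for adult-only marks in the second batch, where it was 66.5% over all contacts; with a score 1 unit higher it was 47.7% for adult-only marks in that batch. With a pseudocount of 0.1 FPKM the second-batch median log2 ratio of contacted genes was 0.63 in place of 0.54 for fetal-only and 0.62 in place of 0.54 for adult-only marks. The intervals of these medians all include 0. For fetal-only marks they ran from -0.77 to 0.66 in place of -0.43 to 0.57, and for adult-only marks from -0.75 to 0.66 in place of -0.44 to 0.57. Without bins beside a bin marked in both, an alternative chosen after seeing the data, 89.8% of fetal-only and 92.7% of adult-only bins were open in the other population, and 80.0% (52 of 65) of differential genes beside adult-only bins were higher in adult cells. That last share was 68.6% as reported and 56.8% with at least 5 FPKM. The cause of these shifts was not tested. Low counts limit single contacts most: at the first-batch medians of 10 reads, a few reads turn a ratio.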

Other observations

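Stage-specific marks were spread over all chromosomes. Of the 6910 distinct bins with an active promoter mark that met the other criteria, 6.53% were fetal-only (interval 5.96 to 7.13) and 10.4% adult-only (9.72 to 11.2). The fetal-only share ran from 4% (1.31 to 9.09) on chromosome 18 to 9.97% (6.92 to 13.8) on chromosome 3, while the adult-only share lay between 8.15% on chromosome 8 and 12.6% on chromosome X, so adult-only bins outnumbered fetal-only bins on every chromosome except 12. On chromosome 12 there were 21 fetal-only and 19 adult-only bins.

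Few contacts lay at bins open in the marked population alone. At fetal-only bins open in fetal cells alone, 14 of 32 calls in 1 population were fetal (43.8%, interval 26.4 to 62.3), against 145 of 283 (51.2%) where both were open. At adult-only bins open in adult cells alone, 10 of 25 were fetal (40%, 21.1 to 61.3), against 310 of 592 (52.4%). The first of these leans away from the mark and the second towards it, and both intervals include 50%. All counts given here by openness pool both batches. By batch, the adult-only share was 5 of 16 (31.25%) and then 5 of 9 (55.6%), so its lean was not the same in both. The fetal-only share was 9 of 19 (47.4%) and then 5 of 13 (38.5%). Over all contacts within chromosomes, calls in both made up 25.3% of the first batch and 36.7% of the second. Contacts called in both were less frequent at fetal-only bins open in 1 population or in neither than at those open in both (45.8%, 239 of 522): 21.95% (9 of 41) where open in fetal cells alone, 21.2% (7 of 33) in adult cells alone and 26.2% (16 of 61) in neither. At adult-only bins the shares were 39.7% (390 of 982) where open in both, 37.5% (15 of 40) in adult cells alone, 44% (11 of 25) in fetal cells alone and 28.8% (17 of 59) in neither.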
